A study of Mus musculus with 2 samples.

Results

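Genes that code for subunits of the Polycomb complexes were followed in single-cell RNA sequencing libraries of Terc-/- mouse embryonic stem cells, in which the gene for the RNA component of telomerase had been deleted. The 10 genes, of 38458 gene columns in the tables, were chosen by name for the complexes they belong to. Ezh2, Eed, Suz12, Jarid2 and Mtf2 code for Polycomb repressive complex 2 (PRC2), and Rnf2, Ring1, Bmi1, Pcgf6 and Kdm2b for the forms of Polycomb repressive complex 1 (PRC1). Both groups of cells were Terc knock-out cells of the line DKO741, recovered by targeting both alleles in E14 embryonic stem cells with a loxP-flanked neo gene and Cre. PD100 cells (passage 100 in the labels) came from before the alternative lengthening of telomeres (ALT) had set in, and PD800 cells (passage 800) were survivors that maintain telomeres by ALT. Each was 1 inDrops library, a droplet method in which a unique molecular identifier (UMI) is added to every transcript caught. DKO741 is 1 of 2 lines that were recovered, survivors were rare in both, and cells were freed of feeder cells before use. The study asked with these libraries whether expression changes that came with ALT were shared evenly by the cells.

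PRC2 places methyl groups on a lysine of histone H3 and PRC1 places ubiquitin on histone H2A, and chromatin with these marks is kept silent. In embryonic stem cells both complexes sit at CpG-rich promoters of developmental genes such as the Hox clusters. Ezh2 is the catalytic subunit of PRC2, Eed and Suz12 are the core partners it needs, and Jarid2 and Mtf2 are accessory subunits that belong to alternative forms of the complex. Ring1 and Rnf2 are the alternative ubiquitin ligases of PRC1. Bmi1 and Pcgf6 belong to the Pcgf family, whose members define the forms of PRC1, and Kdm2b brings a variant form to unmethylated CpG islands.

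After barcodes with fewer than 1000 UMIs or over 20% mitochondrial UMIs had been left out, 814 PD100 cells with 1826233 UMIs and 900 PD800 cells with 2580963 UMIs remained. Their median depths were 2151 and 2701.5 UMIs, and mitochondrial UMIs took a median of 1.23% and 4.42% per cell. Of all barcodes, 21 occurred in both libraries, 8 of them among the cells kept. Terc was at 0 UMIs in each library, where 3 counts would be 1.64 and 1.16 CPM, so its loss could not be checked at this depth. All 16 embryonic stem cell markers were detected in both libraries, while the 10 markers of feeder fibroblasts summed to 70 and 41 UMIs, with Col1a1 at 0 and 2 UMIs. With 1 library for each time point there was no replicate error and no test, and library preparation and passage cannot be told apart. Every interval below is a 95% interval for counting error only. The UMIs of all cells in a library were added up and scaled to CPM, the count divided by the total of the library and expressed at a fixed total. Genes with 50 UMIs or more over both libraries together, 6984 in all, are called tested genes. The median log2 ratio of PD800 over PD100 across these genes was -0.34, and a ratio is also given relative to this shift. Fewer transcripts per cell and fewer cells of a type cannot be told apart in such sums.

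Starting sequences are shown for the 4 genes whose ratios lay furthest from the shift of all tested genes, 1 above it and 3 below. Each window runs from 250 bases before to 50 bases after a RefSeq transcript start on GRCm38.p6 and is written along the gene's own strand. Capitals mark matches to CCAAT, or to TTTGGCGC, TTTCCCGC or TTTCGCGC, which are forms of the site bound by E2F factors, on either strand. For Jarid2 the first of its listed windows is shown. The windows lie at chr6:47594981-47595280 (minus strand) for Ezh2, chr11:79992856-79993155 (plus) for Suz12, chr13:44730524-44730823 (plus) for Jarid2 and chr19:47050857-47051156 (minus) for Pcgf6.
Ezh2: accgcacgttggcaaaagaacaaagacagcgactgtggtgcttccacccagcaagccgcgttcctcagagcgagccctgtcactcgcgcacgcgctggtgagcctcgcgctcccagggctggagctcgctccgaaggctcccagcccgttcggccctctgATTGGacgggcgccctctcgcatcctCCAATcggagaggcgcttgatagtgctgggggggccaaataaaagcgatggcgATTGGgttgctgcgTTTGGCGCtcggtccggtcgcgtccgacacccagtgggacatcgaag
Suz12: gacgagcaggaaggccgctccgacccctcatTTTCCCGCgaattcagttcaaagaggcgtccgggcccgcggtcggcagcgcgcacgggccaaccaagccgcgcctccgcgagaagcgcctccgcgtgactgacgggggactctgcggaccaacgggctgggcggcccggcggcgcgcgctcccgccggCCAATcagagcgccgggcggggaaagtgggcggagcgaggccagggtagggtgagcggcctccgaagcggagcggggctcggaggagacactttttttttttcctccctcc
Jarid2: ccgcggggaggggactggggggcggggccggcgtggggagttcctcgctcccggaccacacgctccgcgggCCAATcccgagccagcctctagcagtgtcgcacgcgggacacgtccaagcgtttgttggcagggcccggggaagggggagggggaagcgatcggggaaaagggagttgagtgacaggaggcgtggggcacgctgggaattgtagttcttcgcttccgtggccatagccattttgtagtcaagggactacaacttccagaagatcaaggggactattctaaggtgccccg
Pcgf6: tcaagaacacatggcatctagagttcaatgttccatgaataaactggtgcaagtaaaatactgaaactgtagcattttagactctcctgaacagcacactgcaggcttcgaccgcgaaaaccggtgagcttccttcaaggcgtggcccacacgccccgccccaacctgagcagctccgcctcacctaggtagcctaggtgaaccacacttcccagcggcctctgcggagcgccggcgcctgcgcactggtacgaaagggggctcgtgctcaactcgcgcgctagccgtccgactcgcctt

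All 10 genes were matched to RefSeq, with 15 windows between them. The windows held a median of 28 CG dinucleotides, from 2 to 49, against a median of 7 over all 32851 windows of the same length. Ezh2 had 31, Suz12 41, Jarid2 24 and Pcgf6 22. An E2F match was found in 2 of the 15 windows, those of Ezh2 and Suz12. In Ezh2 it was TTTGGCGC, present in 0.514% of all windows, 3 bases after the start. In Suz12 it was TTTCCCGC, present in 1.07% of all windows, at -219 from the start. Any of the 3 E2F forms occurred in 1.84% of all windows. CCAAT occurred in 8 of the 15 windows, from 6 of the 10 genes, and in 37.4% of all windows. Overlapping windows of Kdm2b held the same CCAAT match, which was counted in each. CACGTG occurred in 1 of the 15 windows, that of Bmi1, and in 7.15% of all windows. The motifs did not overlap each other in the windows shown. A match describes letters only, and Ezh2 and Suz12, which both held one, had ratios on opposite sides of the shift.

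The 10 genes together had 1627 UMIs in PD100 and 1948 in PD800. Scaled to the library totals these came to 891 CPM (848 to 935, exact Poisson) and 755 CPM (722 to 789), with a log2 ratio of -0.24 (-0.33 to -0.14, exact conditional interval) and 0.10 relative to the shift. On the plain scale the sum was lower in PD800, and with median-of-ratios scaling, which places the median of tested genes at 0.13, it was higher, at 0.23. The single genes spread over 1.67 log2 units, from Ezh2 at 0.34 to Pcgf6 at -1.33. Their median, over the 9 tested members, was -0.33, close to the -0.34 of all tested genes. The interval lay wholly above the shift for 2 of the 9, Ezh2 and Eed, as it did for 30.0% of all tested genes. It lay wholly below the shift for 3 of the 9, Suz12, Jarid2 and Pcgf6, as for 26.5% of all tested genes. No member was 2-fold higher in PD800, which 9.22% of tested genes were. Jarid2 and Pcgf6 were at least 2-fold lower, against 16.9% of tested genes, and neither reached 2-fold with median-of-ratios scaling. With 9 tested members these counts were close to the background in each direction, and nothing was read from them about the members as a set.

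Ezh2 (ENSMUSG00000029687.16, chromosome 6, 47530139 to 47595341, minus strand, GRCm38) was counted at 222 UMIs in PD100 and 396 in PD800. Its level was 122 CPM (106.1 to 138.6) in PD100 and 153 CPM (138.7 to 169.3) in PD800, so the intervals lay edge to edge. The log2 ratio was 0.34 (0.10 to 0.58), or 0.68 relative to the shift, and 21.5% of tested genes had a higher ratio. Among the members it was, on this scaling, the 1 gene whose plain interval lay above 0.

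Eed (chromosome 7, 89954654 to 89980983, minus strand), which binds the methyl mark that PRC2 makes, had the most UMIs of the members, 412 in PD100 and 582 in PD800. Its level was 225.6 CPM (204 to 248) and 225.5 CPM (208 to 245), and the libraries could not be told apart on this scale. The log2 ratio had an interval from -0.19 to 0.18. Relative to the shift it was 0.34 (0.16 to 0.53), above that of the typical tested gene.

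Suz12 (chromosome 11, 79993106 to 80034123, plus strand), the scaffold that holds the PRC2 core together, had 108 UMIs in PD100 and 86 in PD800. Its 59.1 CPM (48.5 to 71.4) and 33.3 CPM (26.7 to 41.2) did not overlap. The log2 ratio was -0.83 (-1.25 to -0.41), or -0.49 relative to the shift (-0.91 to -0.06). The lincRNA Gm26563 overlaps exons of Suz12 on the other strand and had 5 and 31 UMIs. Relative to the shift the core subunits therefore did not share a direction. Summed, they had 742 and 1064 UMIs and a log2 ratio of 0.02 (-0.12 to 0.16), or 0.36 relative to the shift (0.23 to 0.50). With median-of-ratios scaling this sum was at 0.49 (0.36 to 0.63). Suz12 alone was then at -0.36 (-0.78 to 0.07), an interval that included 0.

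Jarid2 (chromosome 13, 44729474 to 44921643, plus strand), an accessory subunit of the PRC2.2 form that links PRC2 to ubiquitinated H2A, had 183 UMIs in PD100 and 126 in PD800. Its level was 100.2 CPM (86.2 to 116) in PD100 and 48.8 CPM (40.7 to 58.1) in PD800. PD800 was 2.05-fold lower, with a log2 ratio of -1.04 (-1.38 to -0.70), or -0.70 relative to the shift. Mtf2 (chromosome 5, 108065674 to 108109004, plus strand), a Polycomb-like subunit of the PRC2.1 form that binds CpG-rich DNA, had 368 and 454 UMIs. It was at 202 CPM (181 to 223) and 176 CPM (160 to 193), and its log2 ratio of -0.20 (-0.40 to 0.01) included both 0 and the shift. The interval lay below 0 with at least 2000 UMIs per cell (-0.46 to -0.01), with no filter on barcodes (-0.45 to -0.07), without doublets (-0.42 to -0.01) and without the endoderm-like cells described below (-0.46 to -0.05). The sign turned after thinning, at 0.12 (-0.22 to 0.46), and with median-of-ratios scaling, at 0.28 (0.07 to 0.48). The accessory subunits of the alternative forms of PRC2 thus differed from each other in ratio: the interval of Jarid2 ended below where that of Mtf2 began.

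Rnf2 (chromosome 1, 151458004 to 151500955, minus strand), the main ubiquitin ligase of PRC1 in embryonic stem cells, had 92 UMIs in PD100 and 127 in PD800. It was at 50.4 CPM (40.6 to 61.8) and 49.2 CPM (41.0 to 58.5), with a log2 ratio of -0.03 (-0.43 to 0.37). Its paralog Ring1 (chromosome 17, 34020792 to 34024680, minus strand) had 39 and 44 UMIs, or 21.4 and 17.05 CPM, and a log2 ratio of -0.33 (-0.98 to 0.34). For both ligases the interval included 0 and the shift, so a difference was not detectable on the plain scale at this depth. With median-of-ratios scaling Rnf2 was at 0.44 (0.04 to 0.84), above 0, and Ring1 at 0.15 (-0.51 to 0.81).

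Pcgf6 (chromosome 19, 47033617 to 47050906, minus strand), which defines the variant complex PRC1.6 at germline genes, had 153 UMIs in PD100 and 86 in PD800. Its 83.8 CPM (71.0 to 98.2) in PD100 stood well clear of the 33.3 CPM (26.7 to 41.2) in PD800. PD800 was 2.51-fold lower, with a log2 ratio of -1.33 (-1.73 to -0.94), or -0.99 relative to the shift, and 92.1% of tested genes had a higher ratio. Kdm2b (chromosome 5, 122870665 to 122989823, minus strand) had 43 and 40 UMIs, or 23.5 and 15.5 CPM, and a log2 ratio of -0.60 (-1.26 to 0.05). Its interval lay below 0 with at least 2000 UMIs per cell (-1.44 to -0.02), with no filter on barcodes (-1.24 to -0.04), without the endoderm-like cells (-1.33 to -0.02) and after thinning to 1000 UMIs, at -1.50 (-2.79 to -0.33), the draw whose share of cells is given below. Bmi1 (chromosome 2, 18677018 to 18686629, plus strand), a Pcgf protein of canonical PRC1, had 7 UMIs in each library and was not among the tested genes. Its 3.83 CPM (1.54 to 7.90) and 2.71 CPM (1.09 to 5.59) lay just above the 1.64 and 1.16 CPM that 3 counts correspond to. The PRC1 members summed to 334 and 304 UMIs and a log2 ratio of -0.63 (-0.86 to -0.41), and the PRC2 members to 1293 and 1644 UMIs and -0.15 (-0.26 to -0.05). Without Pcgf6, left out after its value was seen, the other 4 PRC1 members had 181 and 218 UMIs and a ratio of -0.23 (-0.52 to 0.06), and the ligases alone were at -0.11 (-0.45 to 0.22). With median-of-ratios scaling the PRC2 sum turned to 0.32 (0.21 to 0.43) while the PRC1 sum stood at -0.16 (-0.39 to 0.07), whose interval included 0. On that scale the PRC1 members without Pcgf6 were at 0.24 (-0.05 to 0.53) and the ligases alone at 0.36 (0.02 to 0.70).

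**Figure D1:**
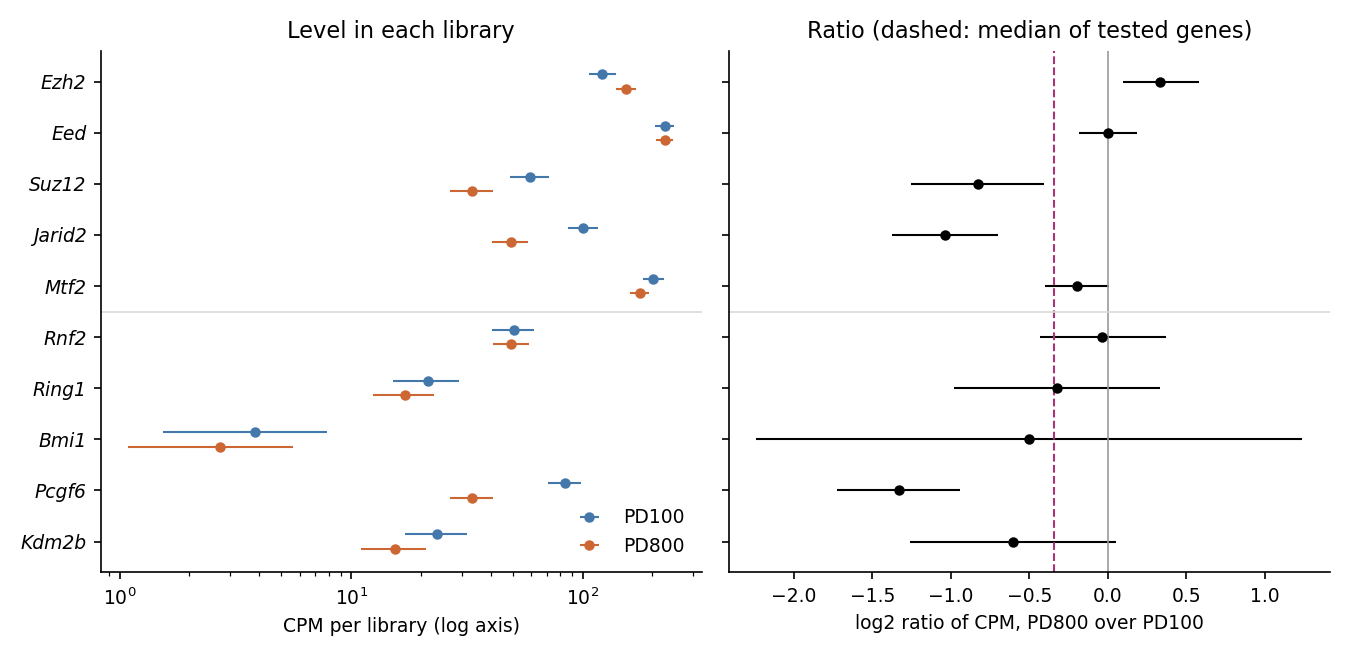
Level of each Polycomb subunit gene in CPM (left, log axis) and log2 ratio of PD800 over PD100 (right). Points are library values, bars 95% counting intervals, and the dashed line marks the median of tested genes at -0.34. The whole intervals of Ezh2 (0.34) and Eed lie to the right of the dashed line, and those of Suz12 (-0.83), Jarid2 (-1.04) and Pcgf6 (-1.33) to the left. The intervals of the other members cross it.

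How the genes were annotated bears on these counts. Reads were mapped to transcripts, and whether strand was used in counting was not given in the sources used here. On the opposite strand, exons of Ezh2 overlap Gm26625 (1 and 3 UMIs), those of Eed E230029C05Rik (4 and 2), those of Mtf2 Tmed5 (74 and 110), those of Rnf2 Trmt1l (143 and 155), and those of Kdm2b A930024E05Rik (5 and 3) and Rnf34 (69 and 66). Among these overlaps and that of Suz12 with Gm26563, the partner had more UMIs than the member for Rnf2 and Kdm2b. The counts of all the members named here, Suz12 included, are uncertain as far as reads of a partner could be counted with them. Bmi1 shared 38.3% of its transcripts' 20-base words with Gm5946, so its low count is uncertain too. For the other members the gene with the most shared words held at most 5.47% of them, that for Kdm2b. Tested genes whose transcripts carry a repeat also present in Gm37750, Unc13d, Dnajb14 and 2310058D17Rik had a median log2 ratio of 1.25 (451 of 6788 genes with transcripts), against -0.39 for the rest. None of the 10 members shared a word with that repeat in sense.

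To compare the libraries without any scaling, the UMIs of a gene were taken as a share of the UMIs of its partners. UMIs were not scaled to transcript length, so such a share compares libraries and not genes. Jarid2 took 33.2% (29.3 to 37.3, exact binomial) of the UMIs of Jarid2 and Mtf2 in PD100 and 21.7% (18.4 to 25.3) in PD800. The intervals did not overlap. Pcgf6 took 62.4% (56.1 to 68.5) of the UMIs of Pcgf6 and Rnf2 in PD100 and 40.4% (33.7 to 47.3) in PD800. Among the PRC2 core, Suz12 went from 14.6% (12.1 to 17.3) to 8.08% (6.52 to 9.89) and Ezh2 from 29.9% (26.6 to 33.4) to 37.2% (34.3 to 40.2), while Eed stood at 55.5% and 54.7% with intervals that overlapped. Ezh2 took 91.4% (87.1 to 94.6) of the UMIs of Ezh2 and its paralog Ezh1 in PD100 and 98.0% (96.1 to 99.1) in PD800, which rests on 21 and 8 UMIs of Ezh1. The split between the ligases, with Rnf2 at 70.2% (61.6 to 77.9) and 74.3% (67.0 to 80.6), was not told apart between the libraries. Neither was that between Bmi1 and Pcgf2, at 7.14% (2.92 to 14.2) and 3.57% (1.45 to 7.22) for Bmi1. PRC2 members made up 79.5% (77.4 to 81.4) and 84.4% (82.7 to 86.0) of the UMIs of all members. Of the remaining UMIs Pcgf6 had 153 in PD100 and 86 in PD800, and no share was taken without it.

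**Figure D2:**
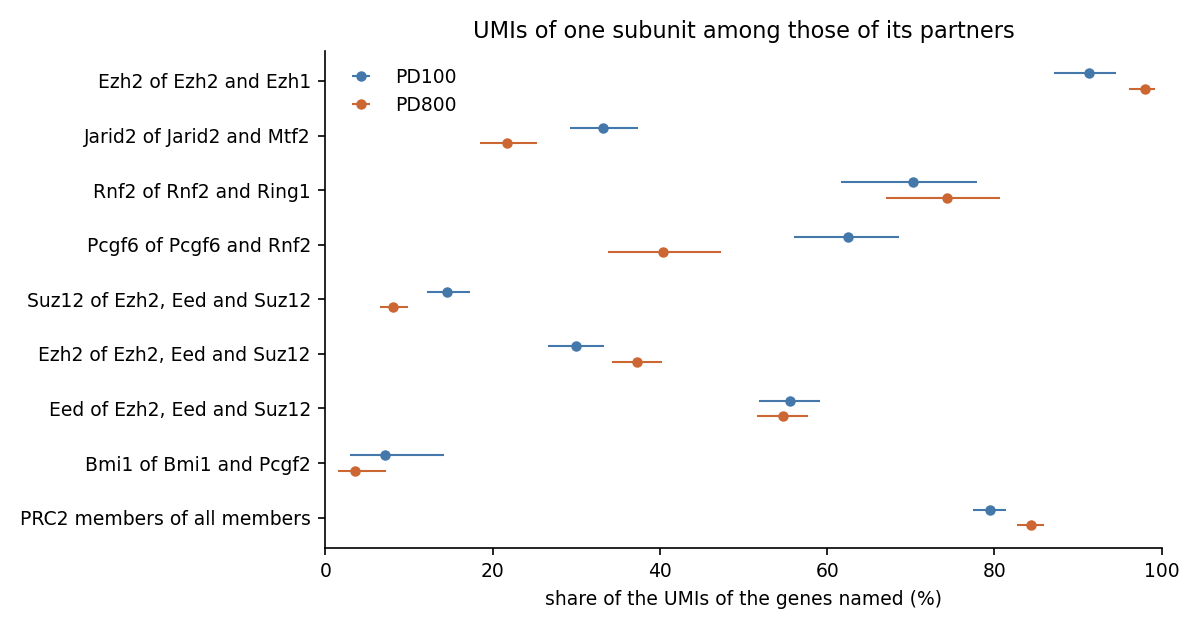
Share of UMIs that a Polycomb subunit gene takes among the genes named on the left, in percent, for PD100 and PD800. Bars are exact binomial intervals. The libraries part for Jarid2 against Mtf2 (33.2% and 21.7%) and for Pcgf6 against Rnf2 (62.4% and 40.4%) and overlap for Rnf2 against Ring1.

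The same genes were then read cell by cell, with 1000 UMIs drawn at random from each cell so that depth was equal. An Ezh2 UMI was present in 82 of 814 PD100 cells, or 10.1% (8.09 to 12.3, exact binomial), against 120 of 900 PD800 cells, or 13.3% (11.2 to 15.7). Eed was present in 17.9% (15.4 to 20.7) and 19.4% (16.9 to 22.2) of cells and Mtf2 in 13.3% (11.0 to 15.8) and 14.2% (12.005 to 16.7). For these genes the intervals of the libraries overlapped. Jarid2 was present in 68 PD100 cells (8.35%, 6.55 to 10.5) and 37 PD800 cells (4.11%, 2.91 to 5.62), and Pcgf6 in 57 (7.00%, 5.35 to 8.98) and 25 (2.78%, 1.81 to 4.07), and for both the intervals were apart. Suz12 was present in 5.04% (3.64 to 6.77) and 3.33% (2.26 to 4.72), which overlapped, while at 2000 UMIs its 9.68% (7.15 to 12.7) and 4.76% (3.26 to 6.69) were apart.

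Rnf2 was present in 4.79% and 4.67% of cells, Ring1 in 1.72% and 1.22%, and Kdm2b in 2.46% (1.51 to 3.77) and 0.889% (0.385 to 1.74). The mean over all possible draws was 1.84% and 1.44% for Kdm2b, so the gap of this draw was not read as a difference. A Bmi1 UMI was left in 3 of 814 PD100 cells and in 0 of 900 PD800 cells, which allows a share of up to 0.333% at 1000 UMIs per cell by the limit of 3 counts, and of 0.409% by the exact binomial interval. The mean over all possible draws was 0.385% and 0.296%, and at full depth Bmi1 was in 7 and 6 cells. Without thinning the shares were 18.3% and 26.3% for Ezh2, 32.1% and 38.4% for Eed, 8.85% and 7.44% for Suz12, 15.2% and 11.0% for Jarid2, 26.2% and 28.9% for Mtf2, 12.3% and 7.44% for Pcgf6, 7.99% and 11.6% for Rnf2, 4.30% and 4.11% for Ring1, and 3.69% and 3.89% for Kdm2b, at the deeper coverage of PD800. No cell type here is known to lack these genes, so no background share from free RNA could be given.

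A UMI of any member was present in 52.3% (48.8 to 55.8) of PD100 cells and 49.3% (46.0 to 52.7) of PD800 cells at 1000 UMIs. Any PRC2 member was present in 44.2% and 43.9%, and any PRC1 member in 15.1% (12.7 to 17.8) and 9.22% (7.41 to 11.3). The gap for PRC1 depended on the draw and the depth: the mean over all possible draws was 14.02% and 10.4%, at 2000 UMIs it was 26.2% (22.3 to 30.5) and 20.3% (17.3 to 23.6), which overlapped, and without thinning 25.7% and 24.2%. Cells with a UMI of exactly 1 member made up 37.1% and 37.6%, and cells with 2 members 12.2% and 9.44%. Poisson counts with the same mean in every cell would have placed a member in 57.3% and 53.8% of cells, somewhat more than were seen. No gene followed Eed across cells with a Pearson r of 0.2 or more in both libraries, over 1382 genes with at least 0.1 UMI per thinned cell. The highest values were 0.12 over 814 PD100 cells and 0.13 over 900 PD800 cells, too weak in such sparse counts to name a gene.

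**Figure D3:**
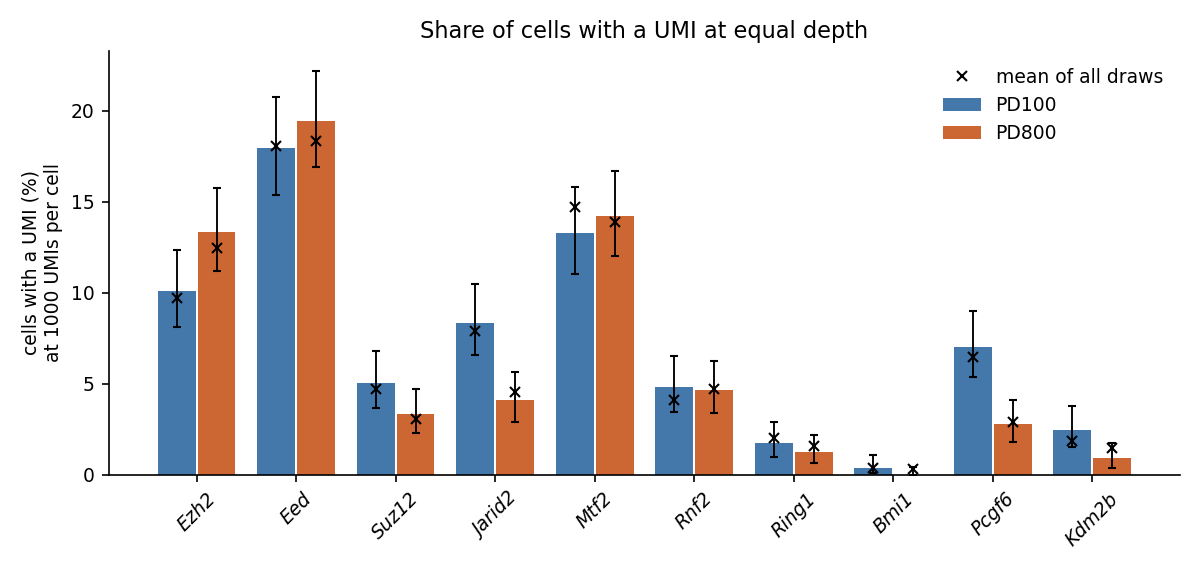
Share of cells with at least 1 UMI of each Polycomb subunit gene after thinning every cell to 1000 UMIs. Bars are the share in 814 PD100 and 900 PD800 cells with exact binomial intervals, and crosses the mean over all possible draws. Jarid2 (8.35% and 4.11%) and Pcgf6 (7.00% and 2.78%) are the members whose intervals are apart.

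Cells were clustered to see whether the members varied within a library. Clusters 1 (491 cells), 4 (285 cells) and 5 (38 cells) were all PD100 cells, and clusters 2 (460 cells) and 3 (440 cells) all PD800 cells, so no cluster allowed a comparison of the libraries. Cluster 5 held 16 of 20 markers of extraembryonic endoderm and is called endoderm-like. It was led by Srgn, Col4a1, Col4a2, Lama1, Serpinh1, Lamb1, Cryab, Gata6, Dab2 and P4ha2. Members were among the genes that could shape the clusters, so the following values are descriptions.

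In the 38 endoderm-like cells, with 87616 UMIs, the members summed to 42 UMIs or 479 CPM (345 to 648). In the other 776 PD100 cells they summed to 1585 UMIs or 912 CPM (867 to 958), a log2 difference of -0.93 (-1.41 to -0.49). Mtf2 had 3 UMIs there against 365 in the other PD100 cells, a log2 ratio of -2.62 (-4.90 to -1.06). Jarid2 had 2 against 181, at -2.19 (-5.25 to -0.32), and Eed 10 against 402, at -1.02 (-2.09 to -0.12). Rnf2 had 0 UMIs against 92. With 3 counts over the endoderm-like cells in place of 0 it would be 1.55-fold lower, and the interval of its log2 ratio ended at -0.30. Ezh2 was at 137 CPM (12 UMIs) in the endoderm-like cells and 121 CPM in the others, a ratio of 0.18 (-0.79 to 1.02), and Suz12 and Pcgf6 also had intervals that included 0. Ring1 and Kdm2b had 0 UMIs there, with 39 and 43 in the other cells, and no fold could be given. No median ratio of all genes was taken between these groups, so the lower member sum was not read as particular to the members. The 16 embryonic stem cell markers were lower there too, at 6620 CPM against 12958 and 15698 CPM in clusters 1 and 4. The 20 endoderm markers took 17040 CPM there, against 407 and 315 CPM. Without the endoderm-like cells the summed log2 ratio between the libraries was -0.27, and 2 members still lay above and 3 below the shift.

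Between the larger PD100 clusters the members did not part: cluster 4, led by H19, Krt18, Lgals1, Krt7, Anxa1, S100a6, Sfn, Rhbdf1, Plaur and Cldn4, had the summed members at 912 CPM, as had cluster 1, led by Gm8994, Lefty1, Zscan4f, Trh, Lefty2, Gm45018, Ina, Zscan4d, Gldc and Lncenc1. The ratio of the clusters had an interval from -0.15 to 0.15. Of the 7 Bmi1 UMIs of PD100, 6 lay in cluster 4 and 0 in cluster 1. In PD800, cluster 3 had more member UMIs than cluster 2, 838 CPM (787 to 892) against 684 CPM (642 to 729), with a log2 ratio of 0.29 (0.16 to 0.42). PRC1 members were at 145 and 94.4 CPM, a ratio of 0.62 (0.29 to 0.96), and Rnf2 alone at 59.2 and 40.8 CPM. Ezh2, Eed and Pcgf6 also had intervals above 0, and no member had one below 0. Cluster 2 was led by Ppip5k1, BC051077, A230046K03Rik, Gm44044, Irak1, Xaf1, 2810403D21Rik, Gm37750, Unc13d and Map4, and cluster 3 by Hs2st1, Cox6b2, mt-Rnr2, Ldhb, Itm2a, Med21, Brwd1, Fbxo15, Tmsb15b1 and Rpl36a. The leading genes of cluster 2 include Gm37750 and Unc13d, which carry the repeat named above, and the median depths of clusters 2 and 3 were 2881.5 and 2486 UMIs. The part of either in the difference was not tested. A median ratio of all genes between clusters 3 and 2 was not taken, so the difference was not read as particular to the members.

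Ezh2 and other PRC2 genes are known targets of E2F factors in cycling cells. Cells were split only by G2/M genes, with all other phases pooled, so the values below do not bear on E2F factors. Members were compared between cells with many UMIs of 22 G2/M genes (above the 75th percentile after thinning) and the rest. This gave 133 of 814 PD100 cells and 142 of 900 PD800 cells. Over the 9 tested members in both libraries, 17 of 18 log2 ratios had an interval that included 0, and the ratios ran from -0.96 to 0.56. The exception was Suz12 in PD100, with 10 UMIs in the G2/M-high cells and 98 in the rest, at -0.96 (-2.06 to -0.02). In PD800 it was at -0.02 (-0.96 to 0.82). The summed members differed by -0.02 (-0.21 to 0.18) in PD100 and 0.04 (-0.14 to 0.21) in PD800.

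Because the chromosomes of these cells were described as carrying copy number changes, each member was set beside the 10 nearest tested genes on either side. The neighbours of Suz12 had a median log2 ratio of -0.83, the same as Suz12 itself at -0.83, and 10 of the 20 had a higher ratio than it. The neighbours of Pcgf6 had a median of -0.89, beside -1.33 for Pcgf6, and 14 of 20 had a higher ratio. Pcgf6 lies toward the distal end of chromosome 19, with 26 of the 242 tested genes of that chromosome beyond it. Suz12 lies further from the end of chromosome 11, with 298 of the 618 tested genes there beyond it. With 25 genes on either side these medians were -0.82 and -0.81. Both regions thus stood below the -0.34 of all tested genes together with the member they hold.

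The neighbours of Jarid2 had a median of -0.12, from -1.35 to 1.43, and 17 of 20 had a higher ratio than its -1.04, as had 84.6% of all tested genes. For Ezh2 the neighbours had a median of -0.18 and 5 of 20 had a higher ratio. Those of Eed stood at 0.30, and at -0.21 with 25 genes on either side. The medians for the remaining members were -0.05 for Mtf2, -0.39 for Rnf2, -0.57 for Ring1, -0.07 for Bmi1 and -0.35 for Kdm2b. Neighbour ranges were wide for every member, from -3.37 to 0.58 around Pcgf6. DNA copy number was not measured in these libraries, and its part in the ratios was not tested.

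**Figure D4:**
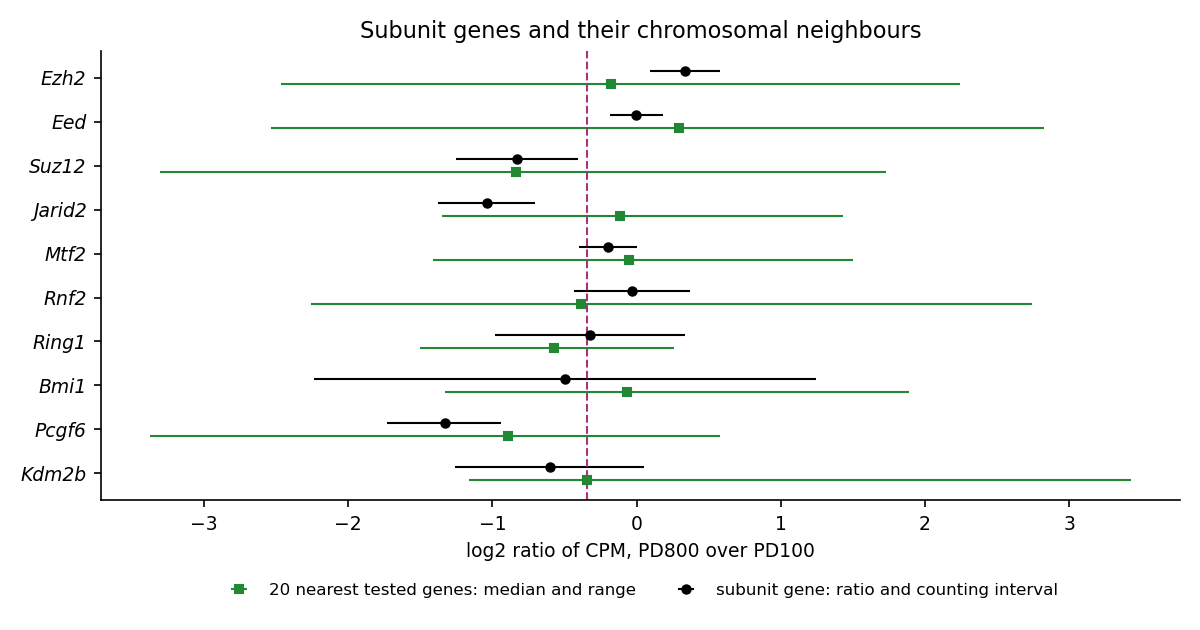
Log2 ratio of PD800 over PD100 for each Polycomb subunit gene (black, with its counting interval) and for its 20 nearest tested genes (green square, median, with a bar for their full range). The dashed line marks -0.34, the median of tested genes. The squares for Suz12 (-0.83) and Pcgf6 (-0.89) lie left of the line, and that for Jarid2 (-0.12) to its right.

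The other subunit genes of both complexes were taken from lists fixed by complex membership, 43 genes in all. Of these 25 were tested, with a median log2 ratio of -0.15. Their intervals lay wholly above the shift for 11 (30.0% of all tested genes did) and wholly below it for 7 (26.5% of all did). By the 2-fold rule 1 of the 25 was higher and 5 were lower, beside shares of 9.22% and 16.9% among all tested genes. With median-of-ratios scaling 3 were higher and 1 lower, beside 16.5% and 5.77%.

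Of the 10 other PRC2 genes 4 were tested. Aebp2, an accessory subunit that belongs with Jarid2 to the PRC2.2 form, had 18 UMIs in PD100 and 127 in PD800, which gave a log2 ratio of 2.32 (1.60 to 3.12). So the PRC2.2 subunits Jarid2 and Aebp2 had ratios of opposite sign, -1.04 and 2.32. Aebp2 lies on chromosome 6, with a start window at 140622413 to 140622712. Unlike the members it was not set beside its neighbours, and the part of copy number in its ratio was not tested. Rbbp4, a histone-binding subunit, was at 0.21 (-0.01 to 0.43) with 272 and 444 UMIs, above the shift. Its transcripts held 36 words of the repeat named above on the antisense strand, and 1 in sense. Epop, a subunit of the PRC2.1 form found under its older symbol E130012A19Rik, had 378 and 224 UMIs and was lower in PD800, at -1.25 (-1.50 to -1.01). Ezh1 had 21 and 8 UMIs, under the limit for tested genes, and a ratio of -1.89 (-3.28 to -0.66).

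Of 11 other canonical PRC1 genes 5 were tested. Pcgf2, the paralog of Bmi1, had 91 UMIs in PD100 and 189 in PD800, or 49.8 and 73.2 CPM, and a log2 ratio of 0.56 (0.19 to 0.93). Its transcripts held 40 of the 61 repeat words in sense, and the median ratio of carriers was 1.25, as given above. The part of the repeat in its count was not tested. Phc3, a polyhomeotic protein, was also above the shift, at 0.50 (-0.31 to 1.35) on 20 and 40 UMIs, and its transcripts held 7 such words. Cbx6, a chromodomain subunit, had 67 and 26 UMIs and was lower, at -1.86 (-2.58 to -1.19).

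Of 22 other variant PRC1 genes 16 were tested, with 7 above the shift (30.0% of all tested genes) and 5 below it (26.5%). Highest by the interval end nearer to the shift was Csnk2a1, a casein kinase subunit found in variant PRC1, with 168 and 367 UMIs, at 0.63 (0.36 to 0.90). Wdr5 (0.22), Skp1a (-0.05), Fbrsl1 (0.43), Rybp (0.39) and Max (0.04) followed, and for each of them the plain interval included 0. Those below were Tfdp1 at -1.12 (-1.41 to -0.83), L3mbtl2 at -1.43 (-1.88 to -1.004), Pcgf5 at -1.36 (-2.18 to -0.58), Usp7 at -0.91 (-1.28 to -0.54) and Yaf2 at -0.99 (-1.60 to -0.39). L3mbtl2 rests on 132 and 69 UMIs and Tfdp1 on 250 and 163.

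**Figure D5:**
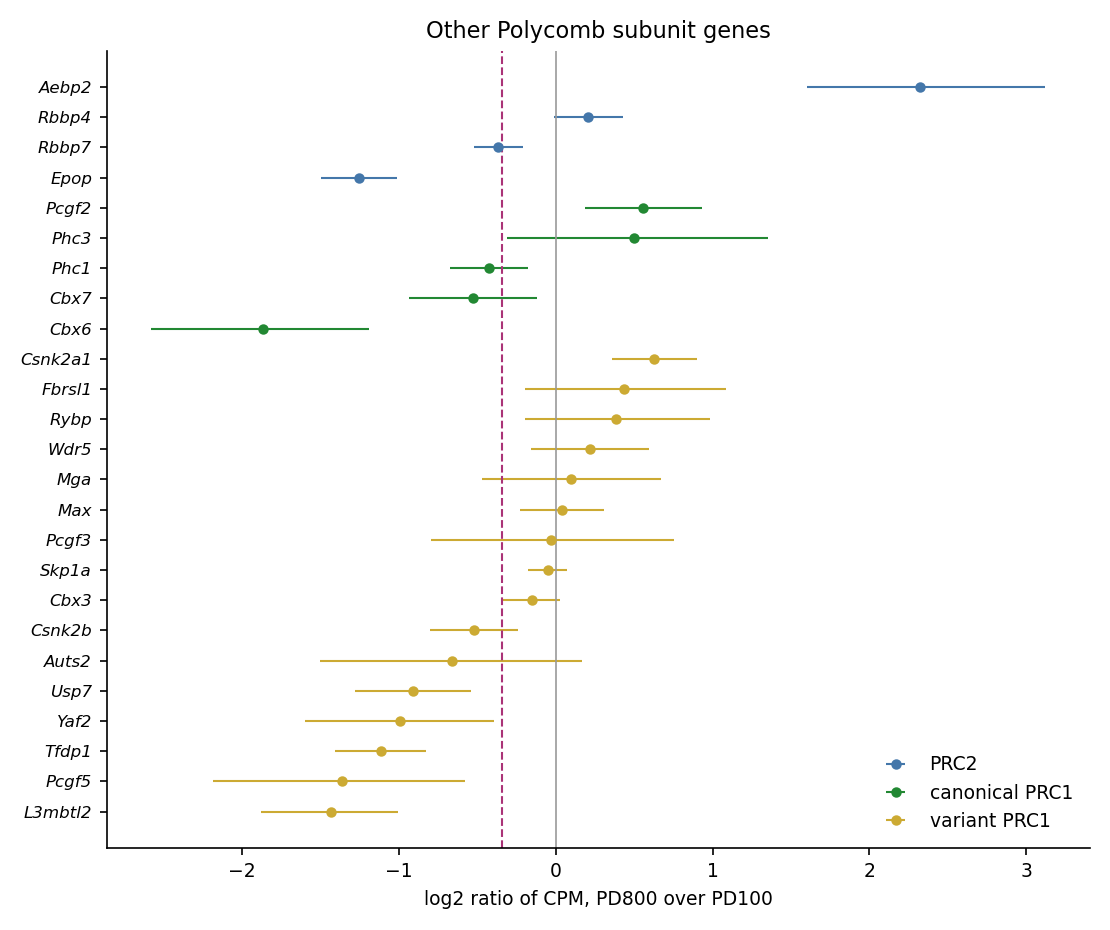
Log2 ratio of PD800 over PD100 for the 25 tested genes that code for other subunits of PRC2 (blue), canonical PRC1 (green) and variant PRC1 (yellow), with 95% counting intervals. The dashed line marks -0.34. Aebp2 (2.32) lies furthest to the right, and Cbx6 (-1.86) and L3mbtl2 (-1.43) are the lowest.

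Genes known as targets of Polycomb complexes were summed, since most single ones had few UMIs. Not all were silent in these cells: Bmp4 had 233 UMIs in PD100, Cdkn1c 114 and Tbx3 46. The 80 genes had 747 UMIs in PD100 and 513 in PD800, or 409 and 199 CPM, with a log2 ratio of -1.04 (-1.21 to -0.88). A UMI was found for 55 of them in PD100 and 56 in PD800. Of the PD100 UMIs, 608 lay outside the endoderm-like cells, and without these cells the ratio was -0.82 (-0.99 to -0.64). The 18 Hox genes had 14 UMIs in PD100 and 34 in PD800, which is a ratio of 0.78 (-0.15 to 1.79) on the plain scale. Its interval included 0 but lay wholly above the shift, at 1.12 (0.19 to 2.14) relative to it, and with median-of-ratios scaling the ratio was 1.25 (0.32 to 2.27). Among single Hox genes, Hoxb13 had 1 and 11 UMIs and Hoxa7 0 and 8, much of the 34 UMIs in PD800. No sum was taken without Hoxb13 and Hoxa7, so the ratio cannot be read as shared by the Hox genes. The 80 targets as a sum were lower in PD800, also with median-of-ratios scaling at -0.57 (-0.73 to -0.41), but this rested in part on Bmp4 and Cdkn1c. Without Bmp4 and Cdkn1c, left out after their values were seen, the other 78 targets had 400 and 386 UMIs and a ratio of -0.55 (-0.76 to -0.35), and -0.08 (-0.28 to 0.13) with median-of-ratios scaling. Without the endoderm-like cells as well, these 78 were at -0.01 (-0.24 to 0.22), an interval that included 0, or 0.33 (0.10 to 0.56) relative to the shift. Markers of extraembryonic endoderm, 20 genes of which 5 are also on the target list, moved with this sum: they had 2142 UMIs in PD100, 649 of them outside the endoderm-like cells, and 417 in PD800. The 75 targets that are no endoderm marker were at -0.76 (-0.93 to -0.59), and at -0.78 (-0.95 to -0.60) without the endoderm-like cells. Without Bmp4 and Cdkn1c the remaining 73 had 261 and 380 UMIs, at 0.04 (-0.19 to 0.28), or 0.38 (0.15 to 0.62) relative to the shift. Tbx3, which stayed in the sums without Bmp4 and Cdkn1c, had 46 and 145 UMIs. No sum was taken without it, so these ratios cannot be read as shared by the remaining targets. Other marker lists moved too: the 8 trophoblast markers had 152 UMIs in PD100, all outside the endoderm-like cells, and 44 in PD800, at -2.29 (-2.81 to -1.79). Markers of the two-cell-like state summed to 77 UMIs and 1 UMI over 9 genes, those of fibroblasts to 70 and 41, and those of neural cells to 122 and 247. The part of these cell types in the target sum was not tested.

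Of the 80 targets 5 were tested, 1 above the shift (30.0% of all tested genes were) and 3 below it (26.5% were). Bmp4, a signalling ligand, had 233 UMIs in PD100 and 113 in PD800, which gave a log2 ratio of -1.54 (-1.88 to -1.21). Cdkn1c, an imprinted inhibitor of the cell cycle, had 114 and 14 UMIs, at -3.52 (-4.44 to -2.72). Gata6, a transcription factor of primitive endoderm, had 54 and 0 UMIs. With 3 counts over PD800 in place of 0 it would be 25.4-fold lower, and the interval of its log2 ratio ended at -4.32. Only 6 of its 54 UMIs lay outside the endoderm-like cells. None of the Cdkn1c UMIs and 1 of the Bmp4 UMIs lay in those cells. Tbx3, a transcription factor that stem cells also use, had 46 and 145 UMIs and was higher, at 1.16 (0.67 to 1.67). Cdkn2a, the cell cycle inhibitor locus classically repressed by Bmi1, had 24 and 29 UMIs, at -0.23 (-1.06 to 0.62).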

How the data were processed

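Single-cell RNA was measured by inDrops in 1 PD100 and 1 PD800 library. The deposited tables hold raw counts (UMIs for each barcode in each gene). The authors obtained these counts from the reads with the inDrops pipeline, using transcripts of the GRCm38/mm10 assembly as reference. The annotation release is not given in the sources used here. The study's limits were applied to the tables: 477 of 1291 PD100 barcodes were removed by count, and of 1666 PD800 barcodes 758 by count and 8 by mitochondrial share. This left 814 and 900 cells, more than the study reports for either time point, and the reason was not examined. Scrublet called 14 PD100 cells (1.72%) and 8 PD800 cells (0.889%) as doublets, which stayed in except for 1 alternative.

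UMIs were summed over cells and given exact Poisson, exact conditional (Clopper-Pearson) or exact binomial intervals at 95%. Cells were thinned to 1000 UMIs with seed 1. Clusters used Poisson-variable genes at a false discovery rate of 0.05, 80 principal components, 15 neighbours and Louvain resolution 1. A cluster was named from 3 or more markers with an average of 0.1 UMI per cell. Repeat words were 61 sequences of 20 bases shared by at least 3 of the 4 genes named for it, and carriers held at least 10. Positions came from GENCODE M21 and promoters from RefSeq. Members, lists and alternatives were chosen with earlier results of these data known. All members were named. Of list genes, those with at least 50 UMIs and an interval beyond the shift were named, at most 6 at either end, plus Ezh1 and Pcgf2. Asxl1 and Usp16, whose intervals included the shift, were named outside this rule. Cdkn2a, Hoxb13, Hoxa7, Rnf34 and other overlapping genes were named after their values were seen. The analysis used Scanpy 1.11.5, python-igraph 0.11.9, SciPy 1.17.1, NumPy 2.4.6 and matplotlib 3.10.9 under Python 3.11.15. The log2 ratio with its interval and the thinning were tested on simulated data, and the other steps were not. Alternatives covered the cell filter, doublets, scaling, mitochondrial genes, the gene minimum, thinning, clustering and neighbour windows.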

Additional observations from a re-analysis of the deposited data

Results flagged for a closer look

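The barcodes left out by the cell filter, which entered a comparison only in the alternative with no filter on barcodes, also held UMIs of the Polycomb subunit genes, above the limit of 3 counts. The members summed to 172 of the 246800 UMIs in 477 PD100 barcodes and to 293 of the 458381 UMIs in 766 PD800 barcodes. The level was 697 CPM (597 to 809) and 639 CPM (568 to 717), with a log2 ratio of -0.12 (-0.40 to 0.16). PRC1 members were at -0.93 (-1.58 to -0.27) and PRC2 members at 0.06 (-0.25 to 0.38) in these barcodes. Eed was at 146 and 262 CPM, with a log2 ratio of 0.84 (0.30 to 1.42), beside 225.6 and 225.5 CPM in the cells that passed. Mtf2 was at 170 and 103 CPM, with a log2 ratio of -0.73 (-1.36 to -0.10), beside -0.20 in the cells that passed.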

How the results depend on the processing

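No paired analysis was possible because each group had 1 library and no result came from a test. With median-of-ratios scaling the summed members turned from -0.24 to 0.23 and their median from -0.33 to 0.15, other Polycomb genes 2-fold higher went from 1 to 3 and those 2-fold lower from 5 to 1, and Jarid2 and Pcgf6 stood at -0.57 and -0.86. The shift of all tested genes moved with them by construction, and members relative to it did not change. The sum was -0.14 after thinning to 1000 UMIs. The median was -0.49 with no filter on barcodes and -0.11 with at least 200 UMIs per gene. The share of cells with any member was 74.4% and 72.0% at 2000 UMIs and 72.6% and 76.6% without thinning, in PD100 and PD800. The target sum was -0.82 without the endoderm-like cells and -0.55 without Bmp4 and Cdkn1c, and the PRC1 sum was -0.23 without Pcgf6, the last 2 chosen after seeing the data. The cause of these moves was not tested beyond depth and scaling. The count of members above and below the shift was 3 and 2 after thinning and 2 and 2 with at least 200 UMIs per gene, where 7 and 6 members were tested, and 2 and 3 under the other alternatives. Relative to the shift, Ring1 changed direction between alternatives, keeping it in 4 of 7, and the other tested members kept theirs in all 7. Depth limits Bmi1, Ring1, Kdm2b and most target genes.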

Other observations

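Enzymes that oppose Polycomb marks were counted from a list of 9 genes, of which 5 were tested. Bap1, the catalytic subunit of the deubiquitinase that removes ubiquitin from H2A, had 97 UMIs in PD100 and 54 in PD800, which gave a log2 ratio of -1.34 (-1.85 to -0.85), and was the 1 gene of the list below the shift, where 26.5% of all tested genes were. None lay above it, where 30.0% were. Asxl1, a partner of Bap1, was at 0.36 (-0.45 to 1.20), and Usp16, another H2A deubiquitinase, at -0.42 (-0.81 to -0.04).

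Other values stand outside the comparisons. Bcor, a scaffold of the Pcgf1 form of PRC1, had 27 UMIs in PD100, 22 of them outside the endoderm-like cells, and 1 in PD800, and Ezhip, an inhibitor of PRC2 found under its older symbol AU022751, had 0 and 8. Both were under the limit for tested genes and were named after their values were seen. Over 20 S phase genes, all tested, the median log2 ratio was -0.58, with 3 above and 9 below the shift. Over 22 G2/M genes it was -0.34, with 8 above and 5 below. Of all tested genes 30.0% lay above and 26.5% below.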
